A study of Mus musculus with 4 samples.

Results

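The alpha- and pi-class glutathione S-transferase genes Gsta1, Gsta2, Gsta3, Gsta4, Gstp1 and Gstp2 were taken by symbol, which gave 6 of the 21827 gene entries of the table. Liver RNA was compared between untreated male and untreated female CD-1 mice, an outbred stock, at 8 weeks of age. Each sex had 12 livers, combined into 2 pools of 6, and all 4 pools were sequenced after poly-A enrichment in a way that keeps the strand. The table gives 1 level per gene and sex, in log2 RPKM (reads scaled to transcript length and to the size of the library), and none per pool, so the spread between pools could not be computed. Ratios, folds and adjusted p-values below are those of the authors' deposited table, whose ratios divide male by female liver, and a gene is called at their adjusted p under 0.05.

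Glutathione S-transferases join glutathione to reactive, often toxic electrophiles, which makes these more soluble and readies them for export and excretion. Alpha-class enzymes are abundant in hepatocytes, also reduce lipid hydroperoxides and bind hydrophobic compounds such as bilirubin and heme. Pi-class enzymes conjugate many carcinogens and drugs and are known in mouse for higher levels in male liver. In rodents both classes include targets of the antioxidant factor NRF2.

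Hepatocyte transcripts were abundant in both sexes, the 6 hepatocyte markers summing to 42507 RPKM in male and 58946 RPKM in female liver. Most of this sum was Alb, female-higher, with 29025 RPKM in male and 46923 RPKM in female liver. Of the other hepatocyte markers only Apoa1 was called, and it was male-higher. The 4 Y-linked genes examined were male-higher and Xist was female-higher, as labelled. A gene without reads lies at a floor, which the low values show to be 1 added read; taken so, the levels imply 11.2 M reads for male and 14.7 M for female liver. Both sexes were at this floor for 6590 entries, 1460 rose above it in 1 sex with the ratio set to 1, 15 had no level and a ratio of 1, and the other 13762 are called compared genes. All 6 members were among these. Entries at the floor in both sexes can still have an adjusted p under 0.05 in the authors' deposited table. Gstt4, for example, has 0.026, so calls are given for compared genes only. Read numbers below are implied by level, transcript length and depth and are approximate; their exact (Clopper-Pearson) 95% intervals cover counting error only.

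Near-identical copies limit what a single member's value can say, so the sequences come before the values. Gstp1 and Gstp2 differed at 12 of 630 coding bases (98.1% identity; stop codon left out), and their transcripts shared an unbroken run of 369 bases. Their first 180 coding bases (GENCODE transcripts, GRCm38, chromosome 19, minus strand) hold 6 of the 12 differences, shown in capitals.
Gstp1: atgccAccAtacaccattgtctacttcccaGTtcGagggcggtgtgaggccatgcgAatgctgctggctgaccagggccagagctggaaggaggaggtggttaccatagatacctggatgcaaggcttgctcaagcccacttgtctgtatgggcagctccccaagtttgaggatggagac
Gstp2: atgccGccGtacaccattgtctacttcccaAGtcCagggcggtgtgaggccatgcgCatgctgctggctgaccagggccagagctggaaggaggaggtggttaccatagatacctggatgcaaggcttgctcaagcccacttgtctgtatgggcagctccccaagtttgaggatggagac
Of 36-base windows of the Gstp1 transcript, 66.0% also occurred in another alpha- or pi-class transcript, and of Gstp2 68.1%. The read length and the treatment of reads that match several genes are both not given in the sources used here. Chromosome 9 holds similar copies: Gsta1 differed from Gm3776 at 2 coding positions and from Gsta2 at 16, and Gsta2 from Gm10639 at 10. Of the 36-base windows of Gsta1, 91.5% were shared, of Gm3776 94.3%, of Gsta2 69.9% and of Gm10639 66.5%. Gsta4 and Gstp3 shared no such window with the other 8 transcripts, and Gsta3 shared 3 of 859. Few or no reads of that length would therefore match both these 3 genes and another of these transcripts without a mismatch. Matches with mismatches and matches to other genes were not searched. Gsta3 was 75.1% identical to Gsta1 in the coding sequence and Gsta4 67.4%.

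Of the 6 members, Gstp1, Gsta1 and Gsta2 were higher in male liver, none was higher in female liver, and Gsta3, Gsta4 and Gstp2 did not pass the test. Among all compared genes, 7.21% were called male-higher and 10.2% female-higher. The members' counts were the same at an adjusted p under 0.01, where 4.16% of compared genes were male-higher and 6.05% female-higher, and among genes with a log2 RPKM of 1 or more in male or female liver, where 8.0% were male-higher and 9.19% female-higher. The median log2 ratio was 0.88 over the 6 members and -0.02 over all compared genes. The called members differed in level as well as in ratio: Gstp1 was an abundant transcript in male liver, whereas Gsta1 and Gsta2 lay near the middle of the compared genes there, at percentiles 47.4 and 50.2.

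**Figure D1:**
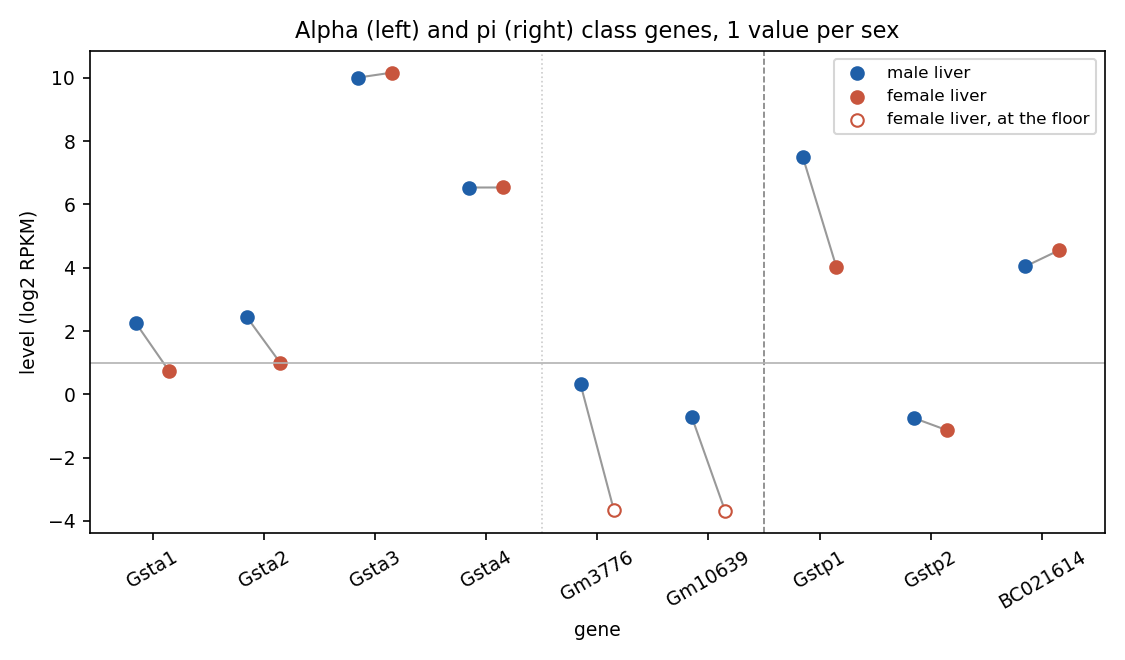
Level in log2 RPKM (vertical axis) of the 6 members and of 3 further alpha- and pi-class genes (horizontal axis), male liver in blue left of female liver in red, 1 value per sex from pooled RNA with no error available; lines join the sexes, open circles lie at the floor and the grey horizontal line marks a log2 RPKM of 1. Gstp1 stands at 7.49 in male against 4.03 in female liver, while Gsta3 and Gsta4, which did not pass the test, differ by at most 0.15 between the sexes.

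Gstp1, a pi-class enzyme gene (chromosome 19, 4035411 to 4037921, minus strand, mm9), had a log2 RPKM of 7.49 in male liver and 4.03 in female liver. On the linear scale this was 179 RPKM in male and 16.3 RPKM in female liver. The fold was 11.4 (log2 ratio 3.51, adjusted p = 4.53e-54) in the authors' deposited table, and 0.603% of compared genes had a larger male-over-female ratio. About 1652 reads in male and 196 in female liver lay behind it, so that counting alone allows 9.51-fold to 12.9-fold. Its rank by level among 13758 compared genes with a level was 322 in male and 3281 in female liver.

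Gstp2 encodes the second pi-class enzyme and lies 2.4 kb from Gstp1 (4040288 to 4042221). Its log2 RPKM was -0.75 in male and -1.14 in female liver, or 0.594 RPKM in male and 0.454 RPKM in female liver. The 2 levels differ by the same 0.39 as the floor itself, so the same number of reads, about 4, was behind each. In the authors' deposited table the ratio was 1.29-fold with an adjusted p of 1.0. Counting alone allows 0.244-fold to 7.03-fold, so these reads do not tell apart ratios within that interval. Gstp1 was 302 times as high as Gstp2 in male liver and 36 times in female liver, both per length. Both figures are coarse, since they rest on about 4 Gstp2 reads in each sex and on how shared reads were assigned.

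The third gene of the pi locus, BC021614 in the table and Gstp3 by its RefSeq accession (4057487 to 4059294), is no member by symbol. It stood at 4.04 log2 RPKM in male and 4.54 in female liver and was 1.53-fold higher in females (adjusted p = 0.00722) by the authors' deposited table. Counting gives a male-over-female read ratio of 0.703 (0.564 to 0.874). The 3 pi-class genes therefore included a call in each direction and a gene near the floor, within 23.9 kb. Of the summed pi-class RPKM, Gstp1 made up 91.3% in male and 40.7% in female liver, and Gstp3 8.38% in male and 58.1% in female liver.

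Gsta3, whose product conjugates aflatoxin epoxide in mouse, was the most abundant member by far (chromosome 1, 21230670 to 21255640, plus strand, mm9). It stood at 10.01 log2 RPKM in male and 10.16 in female liver, or 1029 RPKM in male and 1145 RPKM in female liver, and ranked 52 in male and 49 in female liver. The fold of 1.18 toward female liver did not pass (adjusted p = 0.2) in the authors' deposited table. About 10339 reads in male and 15062 in female liver lay behind these levels, and counting alone gives a male-over-female ratio of 0.876 to 0.922; the spread between pools, which this interval leaves out, could not be computed. Gsta3 made up 90.8% of the summed alpha-class RPKM in male and 92.2% in female liver.

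Gsta4, whose enzyme detoxifies 4-hydroxynonenal from lipid peroxidation (chromosome 9, 78039773 to 78057156, plus strand, mm9), was at 6.53 log2 RPKM in both sexes. Its ratio was 1.03-fold toward female liver (adjusted p = 0.822) in the authors' deposited table, with about 1016 reads in male and 1331 in female liver and a counting interval of 0.920-fold to 1.09-fold. Per length it reached 1 part in 11.1 of the Gsta3 level in male and 1 part in 12.4 in female liver. The log2 RPKM of Gstp1 minus that of Gsta4 was 0.95 in male and -2.50 in female liver.

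Gsta1 and Gsta2, inducible alpha-class genes in mouse, were both higher in male liver, at low levels; 3.03% of compared genes had a larger ratio than Gsta1 and 3.33% than Gsta2. Gsta1 (chromosome 9, 78078476 to 78090490, plus strand, mm9) had 2.25 log2 RPKM in male and 0.73 in female liver. It was 2.88-fold higher in males (adjusted p = 0.000733) by the authors' deposited table, on about 46 reads in male and 20 in female liver (1.75-fold to 5.37-fold from counting error). Gsta2 (78178826 to 78194955, minus strand) had 2.43 log2 RPKM in male and 0.98 in female liver and was 2.64-fold higher in males (adjusted p = 0.00189) by the authors' deposited table. About 52 reads in male and 24 in female liver were behind it (1.72-fold to 4.81-fold from counting error). Gsta2 exceeded Gsta1 by 0.18 in male and 0.26 in female liver as differences of log2 RPKM, and whether this is beyond the spread between pools could not be computed.

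The copies between them showed the same direction on few reads. Gm3776 (78104936 to 78116973) had about 11 reads in male liver and lay at the floor in female liver. It was called male-higher (adjusted p = 0.00234) in the authors' deposited table; set against 3 reads for the sex without any, its male level was at least 4.80-fold higher. That figure takes the male reads as they stand; with their counting error, the 95% interval of the read ratio starts at 3.29. Gm10639 (78137735 to 78153332) had 5 reads in male and none in female liver, which on the same footing is at least 2.18-fold, with an interval that starts at 1.20 when counting error is included; the authors' deposited table sets its ratio to 1 with an adjusted p of 0.0651, so it was not compared. Gsta1, Gsta2, Gm3776 and Gm10639 have nearly equal transcript lengths. Summed over these 4 copies, the level was 12.0 RPKM in male and 3.79 RPKM in female liver, a ratio of 3.16. This sum depends little on how counted reads were divided among the copies. It would depend on whether reads matching several copies were dropped or counted for each copy, which is not given. The low levels of the single copies rest on the same unknown. Whether the calls of Gsta1, Gsta2 and Gm3776 rest partly on the same reads cannot be told from these values.

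**Figure D2:**
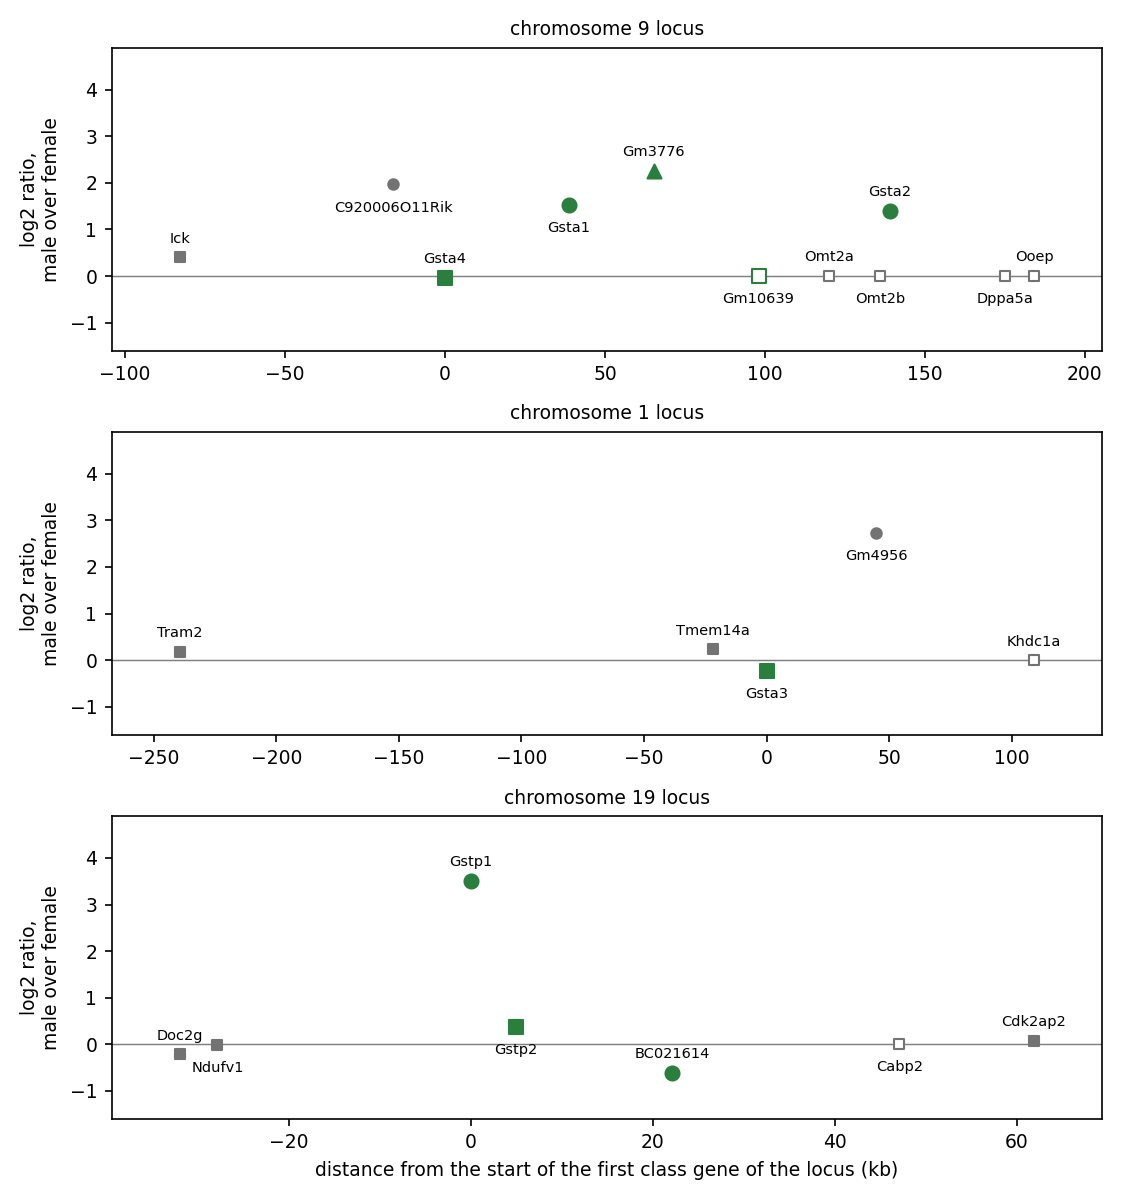
Authors' log2 ratio of male over female liver (vertical axis) against distance in kb from the start of the first class gene (horizontal axis) for the 3 loci, class genes in green and the nearest other genes in grey. Circles were called, squares were not, open squares have a ratio set to 1 for lack of reads, and the triangle marks Gm3776 at its ratio against 3 reads in female liver; Gstp1 stands 3.51 above zero while its neighbours Ndufv1 and Gstp2 do not pass the test.

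Sex differences did not extend evenly along the loci. On chromosome 9, Gsta4 and Gsta1 are separated by 21.3 kb, and of this pair only Gsta1 was called. On the other side of Gsta4, the noncoding RNA gene C920006O11Rik was 3.91-fold higher in males (adjusted p = 0.0433) by the authors' deposited table, at -0.70 log2 RPKM in male and -2.41 in female liver. Omt2a and Omt2b, between Gm10639 and Gsta2, and Dppa5a and Ooep, beyond Gsta2, had no reads above the floor in male or female liver, and Ick, before C920006O11Rik, did not pass. Next to Gsta3, Gm4956, a transcribed pseudogene per RefSeq, was 6.64-fold higher in males (adjusted p = 7.64e-17) by the authors' deposited table, with 3.68 log2 RPKM in male and 0.88 in female liver (4.83-fold to 10.9-fold from counting error). Of the other genes there, Tmem14a, the nearest at 10.4 kb (1.17-fold, adjusted p = 0.793), and Tram2 (1.14-fold, adjusted p = 0.411) did not pass in the authors' deposited table, and Khdc1a was not compared, being at the floor in female liver. The flanking genes of the pi locus with a ratio, Doc2g, Ndufv1 and Cdk2ap2, did not pass, with folds of 1.16, 1.01 and 1.05 in the authors' deposited table, the last toward male liver, and Cabp2 was not compared.

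The promoters are shown because Gsta1 and Gsta2 were both called while of Gstp1 and Gstp2 only Gstp1 was. Each line gives the 250 bases before the start (RefSeq, GRCm38.p6), for Gsta1 at chr9:78230419-78230668 (plus strand), Gsta2 at chr9:78347146-78347395 (minus), Gsta3 at chr1:21240335-21240584 (plus), Gstp1 at chr19:4037913-4038162 (minus) and Gstp2 at chr19:4042222-4042471 (minus). Capitals mark matches, on either strand, to the core of the antioxidant response element (TGACNNNGC), the STAT5 motif (TTCNNNGAA), the core of the aryl hydrocarbon receptor element (GCGTG), an HNF1 motif (GTTAAT), an HNF4 motif (CAAAGTCCA) and the AP-1 motif (TGAGTCA), which was added after the windows were seen.
Gsta1 promoter: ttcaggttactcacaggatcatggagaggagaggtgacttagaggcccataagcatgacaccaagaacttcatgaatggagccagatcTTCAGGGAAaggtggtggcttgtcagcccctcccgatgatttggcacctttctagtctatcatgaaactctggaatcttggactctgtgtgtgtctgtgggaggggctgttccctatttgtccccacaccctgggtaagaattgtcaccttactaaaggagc
Gsta2 promoter: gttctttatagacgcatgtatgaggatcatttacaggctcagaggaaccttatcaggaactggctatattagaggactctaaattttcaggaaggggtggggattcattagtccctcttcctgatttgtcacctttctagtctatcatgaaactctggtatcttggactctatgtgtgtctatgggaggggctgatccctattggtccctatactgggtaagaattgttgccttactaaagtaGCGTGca
Gsta3 promoter: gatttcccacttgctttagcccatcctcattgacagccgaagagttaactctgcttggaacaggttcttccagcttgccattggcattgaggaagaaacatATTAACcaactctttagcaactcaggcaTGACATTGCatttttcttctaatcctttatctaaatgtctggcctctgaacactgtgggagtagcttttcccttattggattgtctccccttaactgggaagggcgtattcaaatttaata
Gstp1 promoter: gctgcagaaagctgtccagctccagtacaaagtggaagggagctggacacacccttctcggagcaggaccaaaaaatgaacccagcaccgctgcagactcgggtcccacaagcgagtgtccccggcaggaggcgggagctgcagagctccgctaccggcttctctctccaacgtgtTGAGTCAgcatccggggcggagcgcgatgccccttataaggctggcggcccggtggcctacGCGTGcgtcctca
Gstp2 promoter: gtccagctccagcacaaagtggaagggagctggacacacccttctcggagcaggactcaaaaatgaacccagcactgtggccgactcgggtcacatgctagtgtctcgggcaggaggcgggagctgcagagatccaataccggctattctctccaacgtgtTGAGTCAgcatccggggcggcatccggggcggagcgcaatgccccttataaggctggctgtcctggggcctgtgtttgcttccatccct
Gsta1 held the STAT5 motif, as did the windows of Gm3776 and Gm10639; 7.02% of 32851 promoters of this length hold it, and Gsta2 did not. Gsta2 and Gstp1 held GCGTG, found in 28.2% of promoters. Gsta3 had the antioxidant core in the form TGACNNNGC (10.2% of promoters) and the HNF1 motif (6.43%). Other forms of this core, and bases beyond these 250, were not searched. Both Gstp1 and Gstp2 carried TGAGTCA (4.46% of promoters), and none of the 5 held the HNF4 motif (0.384%). The Gstp1 and Gstp2 windows were 78.9% identical, those of Gsta1 and Gsta2 72.6%. The table had no window for Gsta4. A match in these letters is a description and not a bound site.

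**Figure D3:**
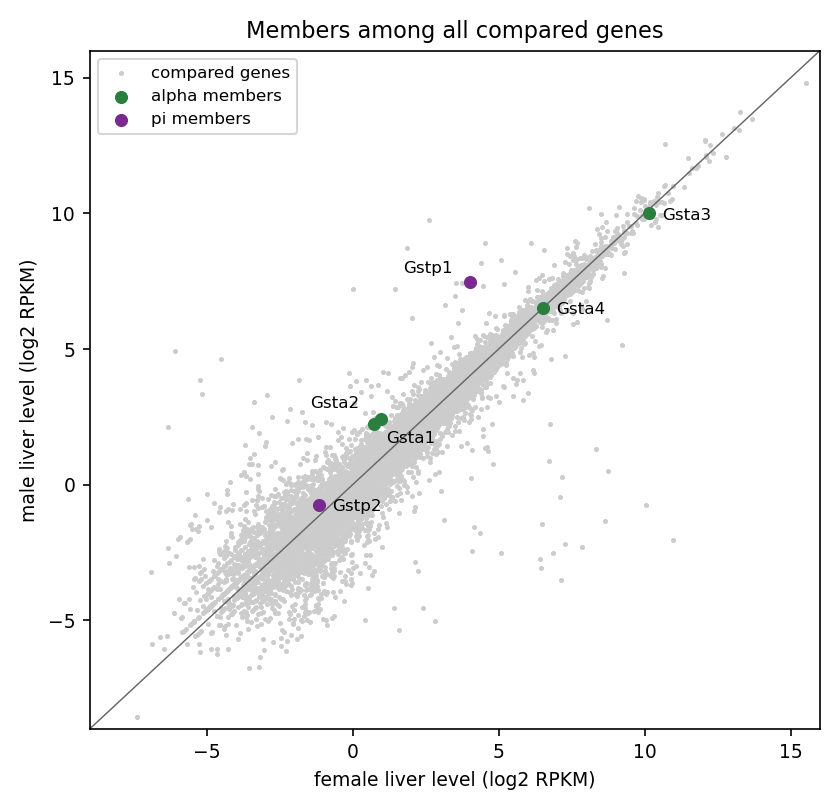
Level in male liver (vertical axis) against female liver (horizontal axis), both in log2 RPKM, for compared genes in grey, alpha members in green and pi members in purple; the line marks equal levels. Gsta3 and Gsta4 lie near the line at high levels, Gsta1 and Gsta2 above it at low levels, and Gstp1 above it at 7.49 in male and 4.03 in female liver.

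The order of members by level was Gsta3, Gstp1, Gsta4, Gsta2, Gsta1 and Gstp2 in male liver, and Gsta3, Gsta4, Gstp1, Gsta2, Gsta1 and Gstp2 in female liver. Summed over the 4 alpha members, the level was 1132 RPKM in male and 1241 RPKM in female liver, a ratio of 0.912. Without Gsta3 it was 103 RPKM in male and 96.3 RPKM in female liver, a ratio of 1.07. Over both pi members it was 179.7 RPKM in male and 16.8 RPKM in female liver, a ratio of 10.7. The sum over all 6 members was 1311 RPKM in male and 1258 RPKM in female liver, a ratio of 1.04, and made up 46.4% of the summed level of cytosolic and mitochondrial transferases in male and 45.1% in female liver. Within this sum Gstp1 held 13.7% in male and 1.30% in female liver, and Gsta3 78.5% in male and 91.0% in female liver.

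**Figure D4:**
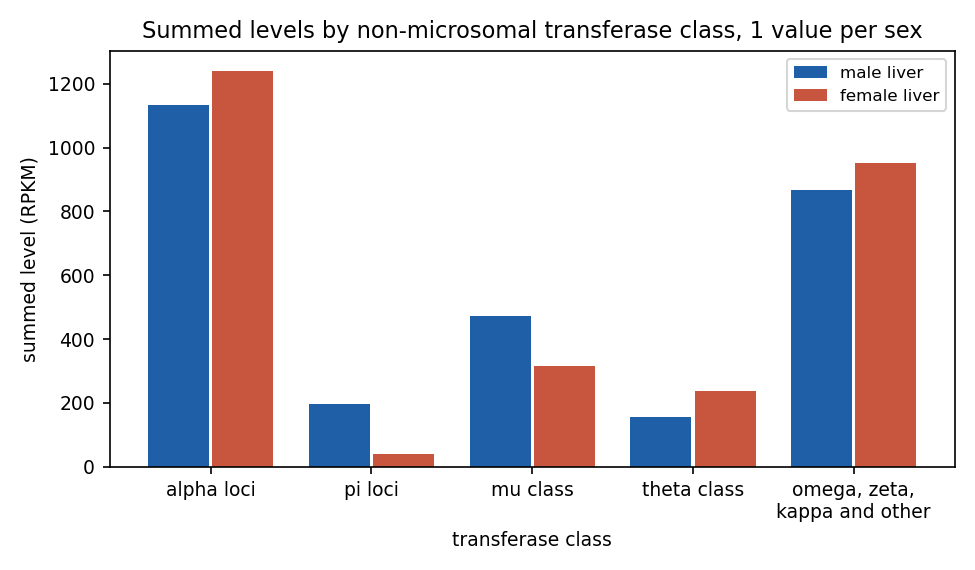
Summed linear RPKM (vertical axis) of the cytosolic and mitochondrial transferase classes (horizontal axis; microsomal genes are left out), male liver in blue left of female liver in red, 1 value per sex with no error available; the alpha and pi bars include the 3 further genes of these classes. Among these classes, alpha-class genes have the highest sum in both sexes, 1134 RPKM in male and 1241 RPKM in female liver, and the pi class 196 RPKM in male and 40.1 RPKM in female liver.

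Likeness to other genes was measured as the distance over the 2 log2 RPKM levels, with the 2 nearest genes named for each member. Nearest to Gstp1 were Selenbp2, at a distance of 0.12, and Mup6, at 0.29. Lect1 and Slc22a4 were nearest to Gsta1, and Rps4y2 and Gm15408 to Gsta2. Cyb5 and Plg lay nearest to Gsta3, Tmem176b and Cox7a2 to Gsta4, and Ccdc73 and Rnf157 to Gstp2. With 2 values per gene this likeness is coarse, and since both levels chose these genes, their sex ratios follow from the choice.

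Beyond these classes, 11 lists covered the other transferases, glutathione synthesis, redox, breakdown and export, and also NRF2 with its partners and targets, receptors and liver factors. Together these 11 lists held 89 compared genes. Calls toward male liver numbered 21 and calls toward female liver 13, and the median log2 ratio was 0.04. Among all compared genes, the shares called were 7.21% toward male and 10.2% toward female liver, and the median was -0.02. No list was tested against these shares, so the counts per list below are descriptive. Among the other transferases, the mu class had 4 male-higher genes and none female-higher of 7, led by Gstm3, Gstm6 and Gstm4 at 1.79-fold, 1.74-fold and 1.70-fold in the authors' deposited table. The theta class had 2 female-higher genes and none male-higher of 3 compared, Gstt3 at 4.0-fold and Gstt1 at 1.42-fold in the authors' deposited table. None of 6 omega, zeta, kappa and other genes was called; Gstz1, of tyrosine breakdown and the most abundant of them, had 8.98 log2 RPKM in male and 9.13 in female liver. Of the 4 microsomal genes, Ptges, a prostaglandin E synthase gene (4.15-fold), and Mgst1 (1.44-fold) were male-higher and Mgst3 (3.14-fold) female-higher in the authors' deposited table. Ptges was low, at -0.23 log2 RPKM in male and -2.29 in female liver. It rested on about 34 reads in male and 10 in female liver (2.15-fold to 10.1-fold from counting error). Mu-class genes also have close copies, and whether their reads were split was not examined.

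Of 6 compared synthesis genes, Cth and Cbs, which make cysteine from homocysteine, were 1.85-fold and 1.37-fold higher in females by the authors' deposited table, and none was male-higher. Gclc and Gclm, the subunits of the rate-limiting ligase, stood at 7.20 and 8.33 log2 RPKM in male against 6.89 and 8.00 in female liver and did not pass. Of 11 redox genes, Gpx7, a peroxidase gene of the endoplasmic reticulum, was the single call, 4.31-fold higher in females by the authors' deposited table. Downstream, 4 of 13 breakdown and mercapturate genes were male-higher and 1 was female-higher. Nat8, which acetylates cysteine conjugates, was 9.02-fold and the related Cml5 67.3-fold higher in males by the authors' deposited table, Cml5 with about 3 reads in female liver (23.8-fold to 346-fold from counting error). Acy1, an aminoacylase gene that deacetylates such products, was 1.54-fold higher in females by the authors' deposited table. Of 8 export pump genes only Abcg2 was called, 2.47-fold higher in males by the authors' deposited table.

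Among factors, Nfe2l2, the gene of NRF2, had 5.13 log2 RPKM in male and 5.22 in female liver and did not pass, nor did its inhibitor Keap1. Of 6 compared genes of this list, Maff, a small Maf partner (2.35-fold), and Bach1, a repressor at the same elements (1.60-fold), were male-higher in the authors' deposited table. The 11 compared NRF2 targets outside the transferases, some of them also in the lists above, had 4 male-higher and 2 female-higher genes. Aldehyde oxidase Aox1 was 4.12-fold higher in male liver, and the quinone reductase gene Nqo1 (3.65-fold) and the carbonyl reductase gene Cbr1 (2.47-fold) in females, by the authors' deposited table. Of 17 receptors and liver factors, 4 were called each way. Cux2, a repressor known for female liver, was 36.3-fold higher in female liver on about 7 reads in male liver (17.2-fold to 89.7-fold from counting error), and Bcl6, a repressor known for male liver (2.20-fold), and Onecut1 (1.54-fold) were higher in males by the authors' deposited table.

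**Figure D5:**
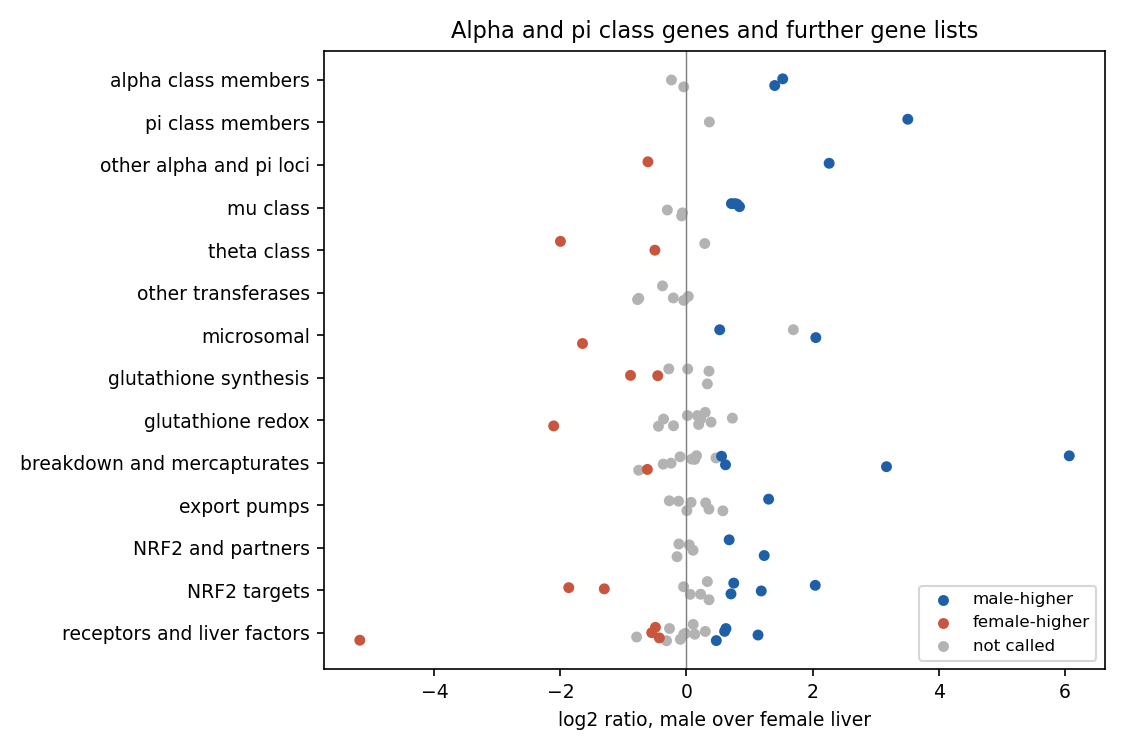
Authors' log2 ratio of male over female liver (horizontal axis) for compared genes of each list (rows), blue for male-higher, red for female-higher and grey for genes not called; Gm3776 is drawn at its ratio against 3 reads in female liver and vertical scatter within a row has no meaning. The alpha and pi members hold 3 male-higher genes and none female-higher, and the further alpha and pi loci 1 call each way. Mu-class, export pump and NRF2 partner genes also hold male-higher calls and no female-higher ones. Theta-class, synthesis and redox genes hold female-higher calls and no male-higher ones. Among all compared genes, 7.21% were called male-higher and 10.2% female-higher.

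In whole liver, fewer cells of a type and less RNA per cell cannot be told apart. Calls among markers of other cells were mostly female-higher, the commoner direction among all compared genes too (10.2% female-higher and 7.21% male-higher). Of 6 stellate cell markers, 4 were female-higher (summed level 93.4 RPKM in male and 125 RPKM in female liver), of 6 Kupffer cell markers 3 (142 RPKM in male and 178 RPKM in female liver), and of 6 endothelial markers 1 (104 RPKM in male and 118 RPKM in female liver), with none male-higher in these 3 lists. Bile duct markers summed to 46.5 RPKM in male and 31.5 RPKM in female liver, of which Spp1, male-higher, gave 43.9 RPKM in male and 27.9 RPKM in female liver. The other 5 bile duct markers summed to 2.60 RPKM in male and 3.63 RPKM in female liver; Sox9 was female-higher, and Krt7, Krt19, Epcam and Cftr lay below a log2 RPKM of 0 in both sexes. Red cell markers summed to 183 RPKM in male and 112 RPKM in female liver, with Alas2 6.67-fold higher in males by the authors' deposited table. Without Alas2, the 4 globin genes, none of them called, summed to 97.0 RPKM in male and 98.5 RPKM in female liver. The 5 lymphocyte markers summed to 2.07 RPKM in male and 1.44 RPKM in female liver with none called. The part of these cell types in the members' ratios was not tested.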

How the data were processed

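Poly-A-enriched, strand-specific RNA of 4 pools (2 male, 2 female) was sequenced, per the labels' protocols. Per the submitters' processing notes, Bowtie, edgeR and the mm9 build are named; no versions are given. Per the file headers, the authors' table gives log2 RPKM per sex, a normalized male-to-female log2 ratio, its linear ratio, a signed fold (a score, negative for higher female levels), an adjusted p-value, and a liver-expressed flag (log2 RPKM of at least 1). Values per pool are not used here, so the planned test on counts could not be run, no gene was tested anew, and the authors' adjusted p under 0.05 gave the calls; the authors' own sex-bias column, per the file headers, uses 0.01, which is given beside it; the method of adjustment is unstated in the sources used here.

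Computed here were floor classes (whole multiples of the floor within 0.3%), implied depth from 4668 floor genes with a GENCODE vM21 transcript length (74.2% within 2% of the median), implied reads, class sums, sequence identities by global alignment and motif matches, in Python 3.11.15 with NumPy 2.4.6, pandas 2.3.3 and SciPy 1.17.1, checked on simulated data. For Gstp1 and Gsta2 the length is that of the gene's RefSeq transcript, since the table's accession has none. Coordinates of genes are mm9 as deposited, with a 1-based start; promoters and transcripts are of GRCm38 and served for sequence, names and lengths. Of the listed genes, 4 were not found by symbol, older symbol or accession. The members, lists and naming rule were chosen with earlier results of these data known. Named were all members, the further genes of both classes, up to 3 called genes per list by size of ratio (the most abundant where none was called), the 2 nearest genes by level and the 2 nearest on each side of a locus; other named genes were chosen after their values were seen.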

Additional observations from a re-analysis of the deposited data

How the results depend on the processing

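The 3 male-higher calls among the 6 members stood at an adjusted p under 0.01, with the direction of the plain difference of levels, and with genes under a log2 RPKM of 1 in both sexes left out, and no member became female-higher. These settings reuse the same levels and adjusted p-values, and the 3 genes lay clear of each limit, so they are no separate check. The members' log2 ratios kept their sign as plain differences, after subtracting the median of all compared genes, and as ratios of implied reads. The last alternative was added after the data were seen. Implied reads are computed from the same levels, so their ratios follow the plain differences and are no separate check. The median of all compared genes, -0.02, was too small to change a sign. For Gsta4, with nearly equal levels, and Gstp2, with about 4 reads in each sex, the sign carries little information. The class sums turned on a single gene each: without Gsta3 the alpha ratio of male over female liver moved to 1.07 (0.912 with it), and without Gstp1 the pi ratio to 1.31 (10.7 with it). Gsta3 and Gstp1 make up most of their class sums, so a move without them follows from their shares. The pi ratio of 1.31 is that of Gstp2 alone. On about 4 reads in each sex, it is the ratio of the depths and measures no sex difference. Over the 11 further gene lists, 21 male-higher and 13 female-higher genes became 20 and 9 at an adjusted p under 0.01, and 20 and 13 with the level filter. Leaving out each pool was not run, since the table has 1 value per sex. No paired analysis was possible because the levels are not given per pool. Low read numbers limit Gstp2, Gsta1, Gsta2, Gm3776 and Gm10639.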
